A study of Rattus norvegicus with 12 samples.

Results

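Genes of the immune system were examined in the striatum of parkinsonian rats that had become dyskinetic on levodopa (LID) and of parkinsonian rats that served as controls (PD control). They were chosen by gene symbol: MHC genes (RT1-, B2m, Tap1, Tap2, Tapbp), interferon receptors and regulators, STATs, interleukins, chemokines, the TNF superfamily, C1q, CD antigens and Aif1, with Cd93 left out. The rule found 164 probes for 163 genes among 13375 probes, of which 9434 carried a symbol. It reads only letters, so it also takes in genes that share a prefix but not an immune role, such as C1qbp of the mitochondrial matrix.

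Total RNA was hybridised to one-colour Illumina arrays, 1 per sample, with 6 samples in each group. All 12 samples came from rats with the parkinsonian condition. The LID rats had received chronic L-DOPA methyl ester at 25 mg/kg together with benserazide, which blocks decarboxylation outside the brain, at 6.25 mg/kg, and RNA was taken on day 8 after that treatment. For the PD control samples the day is also 8, and no dose of either drug is recorded. No levodopa-treated group without dyskinesia is among the samples, so drug and movement disorder cannot be told apart. The sources used here do not give the lesion, the side sampled, or the strain, sex and age of the rats. The labels do not say whether each sample was a separate animal. The p-values set group differences against the spread of these samples, which need not be the spread between animals. In whole tissue, fewer cells of a type and less RNA per cell cannot be told apart.

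Most immune transcripts of the brain come from microglia, its resident macrophages. Class I molecules display peptides from inside the cell with the help of B2m and the Tap transporter, and class II molecules display peptides taken up from outside. Interferon receptors signal through JAK kinases and STAT factors, which bind GAS and ISRE elements in the promoters of responding genes, many of them MHC genes. Cytokines and chemokines carry signals between glia, vessels and leukocytes, and complement C1q tags synapses and debris for uptake.

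These genes changed about as often as the table as a whole. In the limma fit over all probes, 16 of the 164 probes passed a Benjamini-Hochberg adjusted p of 0.05, 11 higher and 5 lower in LID, which is 9.76% against 12.0% of all 13375 probes. The higher share was 6.71% against 6.47%, and the lower share 3.05% against 5.54%. Of the 9434 probes with a symbol 13.4% passed, 7.4% higher and 5.99% lower, so these genes were below that base in both directions. The median log2 difference was 0.0075 over these probes and -0.0036 over all probes. Many of these transcripts were dim: 120 had a mean under the table's median and 72 a mean under its 25th percentile. At or above the median 8 of 44 passed (18.2%, against 17.7% of all probes there), and below it 8 of 120 passed (6.67%, against 6.33%). Of the 164 probes, 9 had deposited intensities that did not overlap between groups (5.49%, against 6.12% of all probes).

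**Figure D1:**
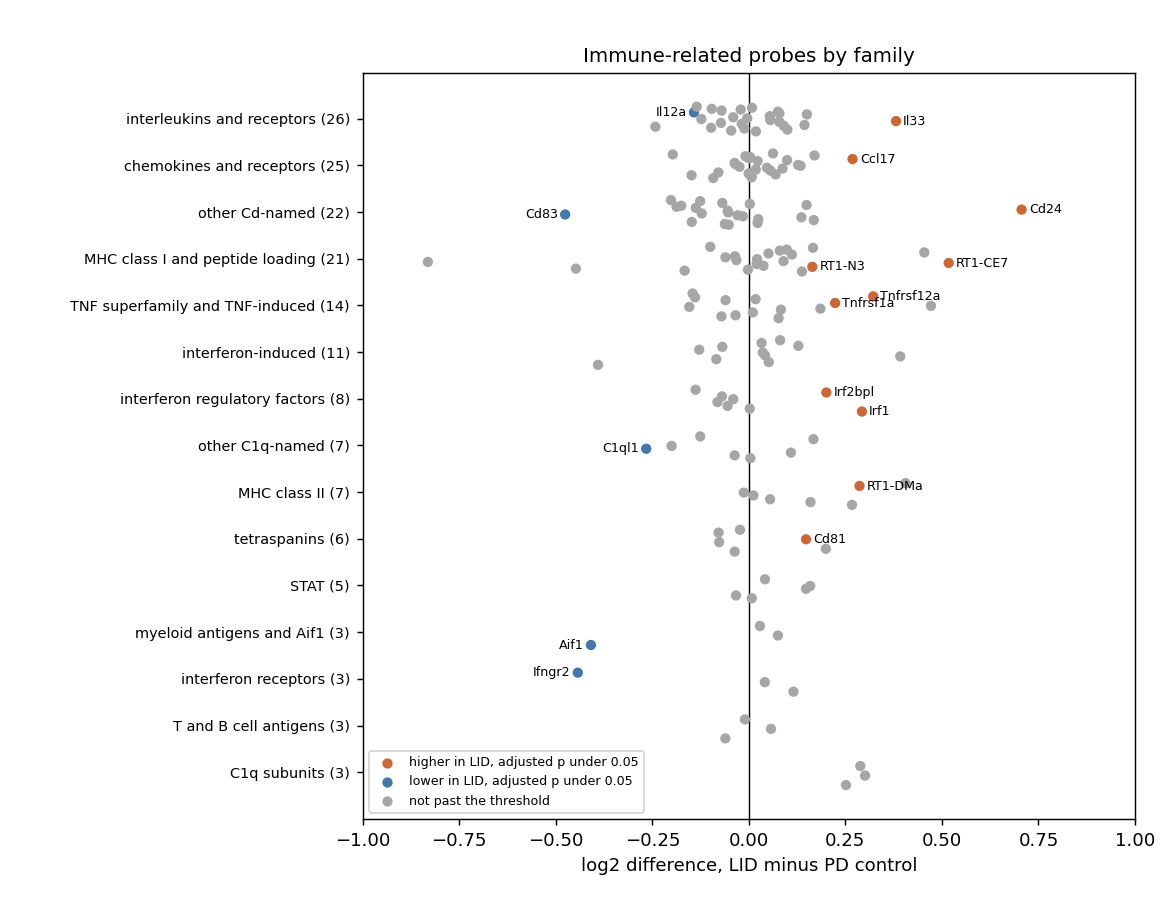
Log2 difference (LID minus PD control, horizontal axis) of each of the 164 probes, by family, with the number of probes in brackets. Orange points rose and blue points fell at an adjusted p under 0.05, and grey points did not pass; most lie within 0.25 of zero, with Cd24 at 0.71 and RT1-A1 at -0.83 farthest out.

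The genes that rose were Cd24, RT1-CE7, Il33, Tnfrsf12a, Irf1, RT1-DMa, Ccl17, Tnfrsf1a, Irf2bpl, RT1-N3 and Cd81. Those that fell were Cd83, Ifngr2, Aif1, C1ql1 and Il12a. Of these 16, 9 passed with all arrays, in each of the 12 fits that left out 1 array, without PD control replicates 1, 3 and 6 together, and under each other setting that tested them: Aif1, C1ql1, Ccl17, Cd24, Ifngr2, Il33, Irf1, Tnfrsf12a and Tnfrsf1a. Those 3 control arrays stood apart in marker genes: their summed intensity over 10 genes of striatal projection neurons was 39841 to 40639, against 47435 to 59452 on the other PD control arrays and 48154 to 61451 on the LID arrays. For 8 choroid plexus and ependymal genes the sum ran from 3851 to 35204 in PD control, with the highest on replicate 1, and from 4177 to 25090 in LID. Without the 3 arrays 9 probes were higher and 4 lower (13 of 164, 7.93%, against 7.92% of all probes), and 10 of the 16 genes remained past the threshold. Of those 10 neuron genes, which mark the labelled tissue and were bright in sum on every array, 4 rose in LID and 0 fell.

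**Figure D2:**
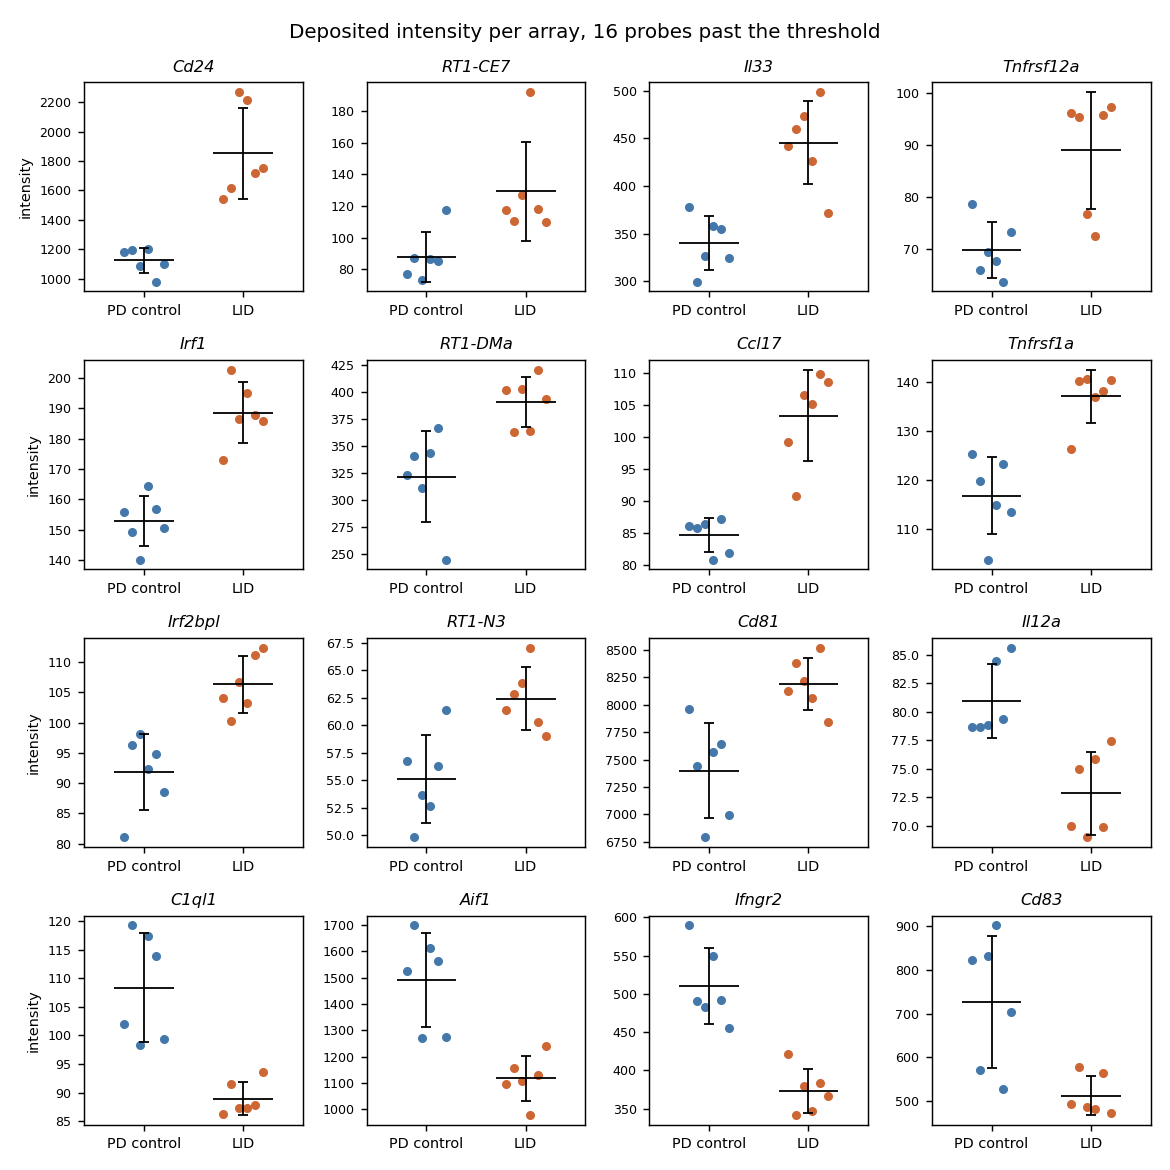
Deposited intensity (vertical axis, a separate scale for each panel that does not start at 0) on each of the 6 PD control arrays (blue) and 6 LID arrays (orange) for the 16 probes past the threshold, with mean and SD in black. Panels run from the largest rise, Cd24, to the largest fall, Cd83; the groups do not overlap in Cd24, Irf1, Ccl17, Tnfrsf1a, Irf2bpl, Il12a, C1ql1, Aif1 and Ifngr2.

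Promoter sequences were read for letters that match the GAS and ISRE elements of interferon and STAT signalling. RefSeq windows of 250 bases before to 50 bases after the start of transcription, on GRCr8, were matched for 130 of the 163 genes. The GAS motif was searched as TTCNNNGAA, which reads the same on both strands, and the ISRE motif as a pair of GAAA runs set apart by 2 bases of any kind, on both strands. GAS was found in 17 of the 130 windows (13.1%, against 8.87% of all 33465 windows) and ISRE in 18 (13.8%, against 3.92%). The windows of 2 genes held both motifs, and 0 matches overlapped. Of the 130 matched genes 13 passed the threshold, 10 of them higher in LID. The 17 with GAS included 3 genes that rose, Irf1, Ccl17 and Tnfrsf12a. Of the 18 genes with ISRE, which included B2m, Tap1, Tap2, Tapbp, Irf7, Ifi27, Ifi44, Ifih1, Ifitm3 and Cxcl10, only RT1-N3 passed. A match is a description of letters and not evidence of binding. The windows of the 4 genes that rose and held a motif are printed with that of B2m, the shared class I light chain, which holds ISRE and did not pass. Capitals mark the matches. They lie on GRCr8 at chr10:38417685-38417984 (plus strand, Irf1), chr19:10209846-10210145 (minus strand, Ccl17), chr10:13213599-13213898 (minus strand, Tnfrsf12a), chr20:2666239-2666538 (plus strand, RT1-N3) and chr3:129549080-129549379 (plus strand, B2m).
Irf1 promoter: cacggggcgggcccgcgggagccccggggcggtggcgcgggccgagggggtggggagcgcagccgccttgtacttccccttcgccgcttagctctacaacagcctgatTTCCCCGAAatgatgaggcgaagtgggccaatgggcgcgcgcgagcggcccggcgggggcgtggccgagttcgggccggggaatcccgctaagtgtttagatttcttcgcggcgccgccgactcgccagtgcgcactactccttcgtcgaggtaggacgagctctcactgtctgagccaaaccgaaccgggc
Ccl17 promoter: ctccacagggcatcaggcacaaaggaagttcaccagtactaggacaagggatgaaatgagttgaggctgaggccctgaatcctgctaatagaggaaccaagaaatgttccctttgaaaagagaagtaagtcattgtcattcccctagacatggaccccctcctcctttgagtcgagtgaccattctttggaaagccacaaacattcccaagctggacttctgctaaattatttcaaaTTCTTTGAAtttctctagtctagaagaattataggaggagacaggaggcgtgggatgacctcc
Tnfrsf12a promoter: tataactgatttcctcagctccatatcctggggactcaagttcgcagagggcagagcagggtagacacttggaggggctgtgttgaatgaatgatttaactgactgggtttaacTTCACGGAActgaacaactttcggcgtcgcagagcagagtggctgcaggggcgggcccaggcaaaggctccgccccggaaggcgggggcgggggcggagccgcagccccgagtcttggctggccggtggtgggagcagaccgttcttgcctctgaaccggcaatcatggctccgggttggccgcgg
RT1-N3 promoter: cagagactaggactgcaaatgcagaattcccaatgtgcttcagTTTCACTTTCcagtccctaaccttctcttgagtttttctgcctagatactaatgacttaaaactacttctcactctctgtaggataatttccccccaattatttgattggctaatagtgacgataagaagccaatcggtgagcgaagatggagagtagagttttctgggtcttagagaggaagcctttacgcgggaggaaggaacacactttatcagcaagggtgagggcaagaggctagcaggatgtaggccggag
B2m promoter: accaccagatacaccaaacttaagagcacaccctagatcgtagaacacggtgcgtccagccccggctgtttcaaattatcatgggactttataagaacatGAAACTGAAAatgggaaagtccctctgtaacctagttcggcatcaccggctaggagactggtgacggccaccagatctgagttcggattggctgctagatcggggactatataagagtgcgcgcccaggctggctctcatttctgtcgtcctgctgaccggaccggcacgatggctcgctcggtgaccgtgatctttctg
The GAS match of Irf1 begins 142 bases before the start of transcription, that of Tnfrsf12a 136 bases before it and that of Ccl17 13 bases before it. The ISRE match of B2m begins 150 bases before the start and that of RT1-N3 207 bases before it.

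Class I genes and their peptide-loading partners had 2 of 21 probes higher and 0 lower, with a median log2 difference of 0.038. RT1-CE7, a class I heavy chain gene, had intensities of 73.4 to 118 in PD control (median 85.8) and 110.2 to 192 in LID (median 118). PD control replicate 6 was the only control array that reached the LID range. The rise was 1.43-fold (log2 difference 0.52 ± 0.13 SE, n = 6 per group, adjusted p = 0.023), and it was 0.53 without the 3 control arrays (adjusted p = 0.054). RT1-N3, also a class I gene, rose by 0.16 ± 0.05 (adjusted p = 0.041) from a dim signal, 49.8 to 61.4 in PD control and 59.0 to 67.1 in LID, a call lost in 10 of the 12 fits without 1 array. B2m had 5443 to 6996 in PD control and 5814 to 7568 in LID, and differed by 0.14 ± 0.07 (adjusted p = 0.28, 95% interval -0.02 to 0.30). Tap1 (0.02 ± 0.05), Tap2 (0.11 ± 0.06) and Tapbp (-0.17 ± 0.06), which load peptides, did not pass. Class I genes are near copies of each other, so which copy a probe measured was not tested.

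A wide spread that crossed the groups was seen in 3 other class I probes, RT1-A1, RT1-A2 and RT1-A3, the first of which had the greatest ratio of highest to lowest array among the 164 probes (4.87). RT1-A1 was bright, at 208 to 293, on PD control replicates 2, 3, 4 and 5 and on LID replicate 3. On the same 5 arrays RT1-A3 was at 140.1 to 175 and RT1-A2 at 153 to 215. On the other 7 arrays RT1-A1 lay at 60.0 to 144, RT1-A3 at 75.3 to 97.1 and RT1-A2 at 313 to 431. The ranges of the sets did not overlap for any of the 3 probes, and the sets were described after the values were seen. Between the groups RT1-A1 differed by -0.83 ± 0.37, RT1-A3 by -0.45 ± 0.22 and RT1-A2 by 0.45 ± 0.24, none past the threshold (adjusted p 0.18, 0.23 and 0.26). In the fit without PD control replicates 1, 3 and 6, which leaves only control arrays of the first set, RT1-A2 (0.73, adjusted p = 0.027) and RT1-A3 (-0.80, adjusted p = 0.043) passed and RT1-A1 (-1.34, adjusted p = 0.0503) did not.

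**Figure D3:**
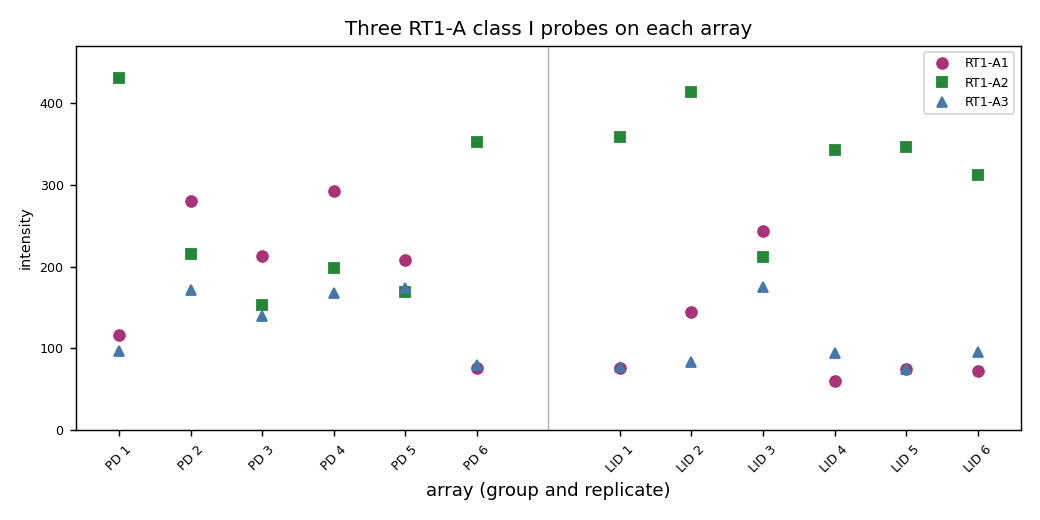
Deposited intensity (vertical axis) of the RT1-A1, RT1-A2 and RT1-A3 probes on each PD control and LID array (horizontal axis). On 5 arrays (PD control replicates 2 to 5 and LID replicate 3) RT1-A1 and RT1-A3 are high and RT1-A2 low, each against its own values on the other 7 arrays.

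Class II genes had 1 of 7 probes higher and 0 lower, with a median log2 difference of 0.16. The mean was higher in LID for 6 of the 7, against 89 of all 164 probes of these genes and 6509 of all 13375 probes. Of the 7, 3 had a mean under the table's 25th percentile. RT1-DMa, a subunit of the chaperone that loads peptide onto class II, had 245 to 367 in PD control (median 332) and 363 to 421 in LID (median 398). It rose 1.22-fold (0.29 ± 0.08, adjusted p = 0.038). PD control replicate 6 was the lowest array by a wide gap, at 245 against 311 to 421 on the other 11, and without the 3 control arrays the difference was 0.16 (adjusted p = 0.14). RT1-DMa passed in only 5 of the 12 fits without 1 array, among them the fit without PD control replicate 6. It passed under 8 of 10 other settings. Its partner RT1-DMb differed by 0.16 ± 0.08, and Cd74, the invariant chain, by 0.27 ± 0.10 (adjusted p = 0.12). RT1-Da, a class II alpha chain, differed by 0.41 ± 0.25 and again varied by array: PD control replicates 1 and 2 had 220.3 and 211, LID replicates 1, 2 and 4 had 258, 218 and 247, and the other 7 arrays lay at 92.6 to 138. By small gaps the same arrays were above the other 7 in Cd74 (81.2 to 107 against 61.3 to 80.2) and RT1-Ba (59.4 to 70.0 against 49.5 to 58.4). The sets overlapped in RT1-DMa, RT1-DMb, RT1-Db1 and RT1-DOa, and were described after the values were seen. RT1-Ba, RT1-Db1 and RT1-DOa were dim and differed by 0.01, 0.06 and -0.01.

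Receptors and relays of interferon signalling moved in both directions. Ifngr2, the signalling chain of the interferon gamma receptor, had 455 to 589.6 in PD control (median 491) and 341 to 421 in LID (median 373). Every LID array was below every PD control array, and Ifngr2 fell by 0.44 on the log2 scale (SE 0.07, 1.36-fold, adjusted p = 0.0015). Ifngr1, the ligand-binding chain, did not pass (0.04 ± 0.05, 95% interval -0.06 to 0.15), nor did Ifnar1 of the type I receptor (0.12 ± 0.05). Jak2, the kinase bound to the Ifngr2 chain and not itself chosen by the symbol rule, rose by 0.44 ± 0.08 (adjusted p = 0.0035), with 280.2 to 371 in PD control and 389 to 542 in LID. Pias3, an inhibitor of STAT3, fell by 0.18 (SE 0.05, adjusted p = 0.019). These were the 1 higher and 1 lower among 14 measured genes of a list of JAK kinases, their SOCS, Cish and PIAS inhibitors and the phosphatases Ptpn6 and Ptpn11. None of 5 STAT probes passed by limma, and 2 had an unadjusted p under 0.05. Stat3 differed by 0.15 ± 0.06 (adjusted p = 0.14), passing only without LID replicate 1 among the 12 fits without 1 array, and Stat5b by 0.16 ± 0.06.

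Irf1, the interferon regulatory factor whose promoter is printed above with its GAS match, had 140.2 to 164 in PD control (median 153) and 173 to 203 in LID (median 187). The groups did not overlap, and Irf1 rose 1.23-fold (0.29 ± 0.05, adjusted p = 0.0019). Irf2bpl, which is named for binding Irf2 and is not itself an interferon regulatory factor, rose by 0.20 ± 0.05 (adjusted p = 0.018), with 81.0 to 98.1 in PD control and 100.3 to 112 in LID. Its difference was 0.16 without the 3 control arrays (adjusted p = 0.072). Irf3, Irf5, Irf7, Irf8 and Irf9 did not pass, with differences of -0.14 to 0.00. Interferon-induced genes had 0 of 11 past the threshold by limma and 1 with an unadjusted p under 0.05, with a median of 0.036. The widest differences were those of Ifitm3, an antiviral membrane protein (0.39 ± 0.14, adjusted p = 0.094), and Ifi27 (-0.39 ± 0.23, adjusted p = 0.32). Of 15 other interferon-stimulated genes 1 rose, Psmb10, a subunit of the immunoproteasome (0.32 ± 0.08, adjusted p = 0.017), and 0 fell.

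Of 26 probes for interleukins and their receptors, 1 rose and 1 fell, with a median of -0.0077. Il33, an alarmin held in the nuclei of astrocytes and oligodendrocytes, had 299.6 to 378 in PD control (median 341) and 372 to 499 in LID (median 451). The lowest LID array was just below the highest PD control array, and Il33 rose 1.30-fold (0.38 ± 0.07, adjusted p = 0.0047). Of 7 astrocyte markers 2 rose and 0 fell, with sums of 18462 to 24148 in PD control and 21708 to 27696 in LID, and of 6 oligodendrocyte markers 0 rose and 2 fell, with sums of 10741 to 18621 and 11711 to 16689. Their part in the rise of Il33 was not tested. Il12a, which encodes the p35 subunit of interleukin 12, fell by 0.14 (SE 0.04, adjusted p = 0.042) in a dim signal of 78.6 to 85.6 in PD control and 69.0 to 77.5 in LID. That call was lost in 11 of the 12 fits without 1 array. Il1b, a main inflammatory cytokine, was dim in both groups and differed by 0.10 ± 0.05 (adjusted p = 0.27). Il18 (-0.13 ± 0.09), Il34, a growth factor for microglia (0.08 ± 0.07), and Il1rapl2, a synaptic member of the interleukin 1 receptor family (-0.24 ± 0.09), did not pass. Il6 was not analysed here. As many as 14 of the 26 probes had a mean under the table's 25th percentile.

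Among 14 TNF superfamily and TNF-induced genes 2 receptors rose and 0 genes fell (median 0.014). Tnfrsf1a, the main receptor of TNF, had 104 to 125 in PD control (median 117) and 126 to 141 in LID (median 139), with no overlap, and rose 1.17-fold (0.22 ± 0.05, adjusted p = 0.0093). Tnfrsf12a, the receptor of the cytokine TWEAK, had 63.7 to 78.6 in PD control (median 68.5) and 72.4 to 97.4 in LID (median 95.7). It rose by 0.32 ± 0.08 (adjusted p = 0.018), although 2 LID arrays lay within the PD control range. Its ligand Tnfsf12, chosen after its values were seen, was dim and differed by -0.07 ± 0.05. Tnfrsf11b, the decoy receptor osteoprotegerin, differed by 0.47 ± 0.20 (adjusted p = 0.15). PD control replicates 3 and 6 held its highest control values, and replicate 1 the lowest value of all arrays (108, next 129). Without PD control replicates 1, 3 and 6 Tnfrsf11b passed (0.68, adjusted p = 0.021). Tnfaip2, likewise chosen after its values were seen, lay just outside the threshold (0.19 ± 0.06, adjusted p = 0.0503). Tnf itself was not analysed here. In a list of NF-kB and Toll signalling genes 1 of 17 measured genes passed, Nfkbia, the inhibitor of NF-kB, which fell by 0.47 (SE 0.07, adjusted p = 0.0018).

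Chemokines and their receptors were mostly dim, with 17 of 25 probes under the 25th percentile, and 1 rose (median 0.0073). Ccl17, a ligand of the receptor Ccr4, had 80.8 to 87.1 in PD control (median 85.9) and 90.7 to 109.8 in LID (median 106), with no overlap. It rose 1.20-fold (0.27 ± 0.05, adjusted p = 0.0032). Cxcl12, which guides cells through Cxcr4, differed by -0.20 ± 0.22, and Cxcr4 by 0.17 ± 0.08. The inflammatory chemokines Ccl2, Ccl5 and Cxcl10 differed by 0.13 ± 0.11, -0.04 ± 0.07 and 0.00 ± 0.07.

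LID replicate 2 stood apart from the other 11 arrays in a group of these chemokine genes, chosen after their values were seen. Ccl2, which draws monocytes, was at 89.1 on it against 44.8 to 56.2 on the others. Ccl7 was at 73.8 against 50.5 to 58.0, Ccl12 at 72.9 against 43.8 to 49.7, and Cxcl13, which draws B cells, at 85.5 against 48.9 to 67.5. Ifitm3 (372 against 143 to 276) and Cd14, the coreceptor for endotoxin (71.7 against 48.3 to 65.4), were also highest there. Without LID replicate 2 the difference of Ccl2 was 0.02, against 0.13 with all arrays.

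Genes of complement C1q had higher means in LID for all 3 subunits but did not pass. C1qa had 344 to 556 in PD control (median 477) and 435 to 623 in LID (median 561), C1qb 494 to 869 (median 788) and 717 to 1044 (median 879), and C1qc 193 to 370.0 (median 345) and 293 to 475 (median 380.4). The differences were 0.25 ± 0.11, 0.30 ± 0.13 and 0.29 ± 0.15 (adjusted p 0.16, 0.16 and 0.26). PD control replicate 6 was the lowest of all arrays in each subunit, and LID replicate 4 the lowest LID array. Without PD control replicate 6 the differences were 0.17, 0.20 and 0.16, and without replicates 1, 3 and 6 they were 0.10, 0.10 and 0.06. Among 8 other measured complement genes, C4b, a component cleaved by the C1 complex (0.26 ± 0.06, adjusted p = 0.018), and Serping1, the inhibitor of C1 (0.52 ± 0.15, adjusted p = 0.044), rose and 0 fell.

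Among the 7 genes that carry C1q in their symbols but encode no C1q subunit, C1ql1, a secreted protein that acts at synapses in the mouse, fell by 0.27 (SE 0.05, adjusted p = 0.0065). It had 98.3 to 119 in PD control (median 108) and 86.3 to 93.6 in LID (median 87.5), with no overlap. The bright C1qbp did not pass (0.00 ± 0.05, 95% interval -0.11 to 0.11), and C1qtnf12, dim in both groups, was at -0.20 ± 0.07 (adjusted p = 0.066).

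Aif1, which encodes the microglial and macrophage protein IBA1, went the other way from the means of C1q. It had 1273 to 1699 in PD control (median 1545) and 977 to 1239 in LID (median 1119), with no overlap. It fell by 0.41 (SE 0.08, 1.33-fold, adjusted p = 0.0052), and by 0.54 without the 3 control arrays (adjusted p = 0.0029). Other microglial markers did not move with it past the threshold: of 16 measured, 0 passed by limma and 2 had an unadjusted p under 0.05, P2ry13 (-0.16 ± 0.05, adjusted p = 0.053) and Tyrobp (-0.14 ± 0.06). The summed intensity of these 16 was 5516 to 6948 in PD control and 5314 to 6733 in LID. Ctss alone had 2636 to 3254 and 2601 to 3351, so the sum says little about the dimmer markers. Trem2 (-0.22 ± 0.11), P2ry12 (-0.23 ± 0.13), and Fcer1g (-0.13 ± 0.09) also had lower means in LID, while Itgam (0.09 ± 0.07), Laptm5 (0.07 ± 0.09), Cx3cr1 (0.05 ± 0.05) and Ctss (0.01 ± 0.08) had higher ones. In all, 9 of the 16 means were lower in LID and 7 higher, with a median log2 difference of -0.0092. As many as 6 of the 16 had a mean under the table's 25th percentile. Of these dim markers Cx3cr1, Tmem119, Fcgr2b and Spi1 had higher means in LID, and Fcgr1a and Olfml3 lower ones. Among the brighter markers Itgam, Laptm5 and Ctss had higher means, and Trem2, Tyrobp, P2ry12, P2ry13, Fcer1g, Fcgr3a and Ly86 lower ones. Ptprc and Csf1r were not analysed here. The part of microglial content in the fall of Aif1 was not tested beyond these values.

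**Figure D4:**
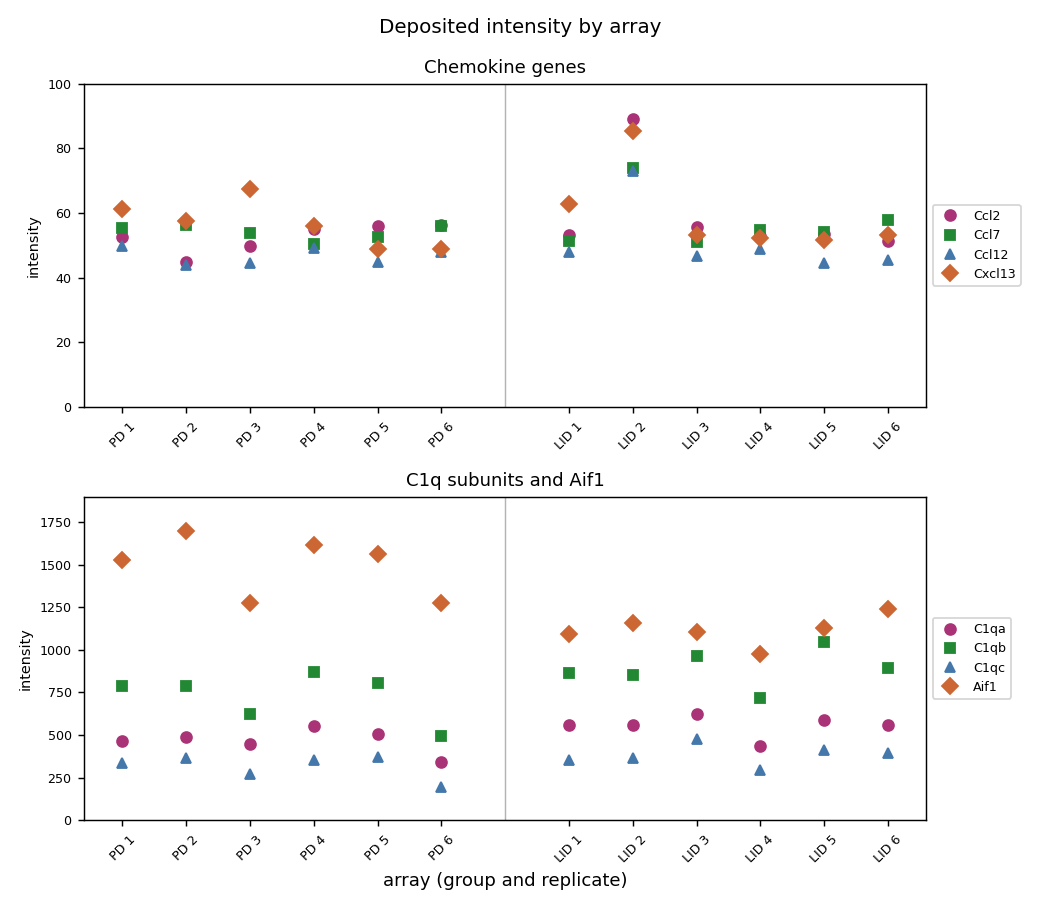
Deposited intensity (vertical axes) on each PD control and LID array (horizontal axis) for 4 chemokine genes (upper panel) and for C1qa, C1qb, C1qc and Aif1 (lower panel). LID replicate 2 stands above the other arrays in the chemokine genes; the C1q subunits are lowest on PD control replicate 6, while every LID array is below every PD control array in Aif1.

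Antigens of T and B cells had 0 of 3 probes past the threshold by limma and 0 with an unadjusted p under 0.05. Cd4 (-0.06 ± 0.05), Cd6 (0.06 ± 0.04) and Cd79b (-0.01 ± 0.04) were at or below an intensity of 91.9 on every array. In the marker lists for blood cells, Lat, an adaptor of the T cell receptor, rose by 0.55 ± 0.13 (adjusted p = 0.012), with 68.3 to 76.0 in PD control and 81.8 to 161 in LID, while Nkg7, the other T and NK cell marker measured, was dim and differed by 0.02. The neutrophil gene S100a8 rose by 0.36 ± 0.08 (adjusted p = 0.011), also dim, with 45.5 to 52.6 and 56.4 to 87.3, and Mpo and Camp did not pass. Summed over the measured markers, T and NK cell genes ran from 117 to 131 in PD control and from 129 to 211 in LID, and neutrophil genes from 154 to 171 and from 179 to 206. The macrophage gene Pf4 fell by 0.27 (SE 0.07, adjusted p = 0.034) and was the 1 of 4 macrophage markers that passed, with sums over the 4 of 260.0 to 310.0 in PD control and 244 to 288 in LID. The haemoglobin genes Hbb and Hbb-b1 summed to 3547 to 7942 in PD control and 3784 to 7029 in LID, and neither passed. Of 5 endothelial markers 1 rose, with sums of 1085 to 1458 and 1276 to 1619.5, and of 6 markers of cortical excitatory neurons and 8 of choroid plexus and ependyma 0 passed by limma. The part of these cells in the results was not tested.

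Among the genes past the threshold the largest change was in Cd24, a small glycoprotein anchored in the membrane of developing neurons and leukocytes. It had 978 to 1199 in PD control (median 1142) and 1542 to 2271 in LID (median 1736), so that the lowest LID array was well above the highest control. It rose 1.63-fold (0.71 ± 0.10, adjusted p = 0.00063), and by 0.71 without the 3 control arrays (adjusted p = 0.011). Cd83, a marker of mature dendritic cells that neurons also express, had 529 to 902 in PD control (median 763) and 473 to 578 in LID (median 490.4). It fell by 0.48 (SE 0.12, adjusted p = 0.023), but PD control replicates 2 and 5 lay within the LID range, and the fall was 0.34 without the 3 control arrays (adjusted p = 0.19). The other 20 probes of this family did not pass, among them the adhesion receptor Cd44 (0.17 ± 0.06, adjusted p = 0.081), the bright Cd47, whose protein signals against uptake by phagocytes (-0.13 ± 0.09), and Cd200, a neuronal ligand that restrains microglia (-0.15 ± 0.06).

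Tetraspanins, membrane proteins of endosomes and cell contacts, had 1 of 6 higher. Cd81 had 6788 to 7964 in PD control (median 7503) and 7844 to 8523 in LID (median 8171). It rose 1.11-fold (0.15 ± 0.04, adjusted p = 0.045), a call lost in 10 of the 12 fits without 1 array and in the fit without the 3 control arrays (0.12, adjusted p = 0.13). Cd63 differed by 0.20 ± 0.10, and the leukocyte tetraspanins Cd37 and Cd53 by -0.08 ± 0.05 and -0.08 ± 0.06, none past the threshold.

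PD control replicate 6 was extreme in both directions among these genes, as described after the values were seen. It was the highest array in Irf7 (113 against 59.2 to 84.1 on the other 11), Irf9 (152 against 105 to 125) and Ifit1 (90.2 against 39.8 to 70.3), genes that respond to interferon. It was also the lowest, by small gaps, in the interferon-responsive genes Ifi35 (80.1, next array 86.1), Ifi30 (89.0, next 89.4) and Tap2 (53.5, next 58.5). By wider gaps it was the lowest in the 3 C1q subunits and RT1-DMa. PD control replicate 1 was the highest in Cd59b, an inhibitor of complement lysis, at 1059 against 556 to 738.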

How the data were processed

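Total RNA of rat striatum was measured on one-colour Illumina arrays with a biotin label, per the labels. The deposited table holds linear intensities that already matched between arrays, with the same upper quartile (426) and maximum (22793) on all 12. For software, background correction and probe filter, the authors' steps are not stated in any label or header. Starting from the deposited intensities, background was corrected with normexp (offset 50), arrays were quantile normalised and log2 values were fitted with limma 3.58.1 in R 4.3.3 (lmFit and eBayes, group as the only term, two-sided, Benjamini-Hochberg over 13375 probes, threshold 0.05). Because of the offset, fold changes understate dim genes. Values per array are deposited intensities, and a probe is called dim or bright only by its place in the table, which does not rank the amounts of different transcripts.

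Symbols come from GEO's platform annotation, and all 164 probes matched a gene identifier of GRCr8 with 0 symbols changed. The members, families, lists and alternatives were chosen with earlier results of these data known. Named were the 16 probes past the threshold, 86 fixed genes with a probe of 122 listed, the 3 widest differences each way per family and list members past the threshold; genes picked later for their values are marked so in the text. A gene with several probes is represented by the one with the highest mean. In 5 simulated data sets for LID against PD control, each of 13375 probes with 200 changed, errors were drawn independently for each probe. Recovery was 60.6% for changes of 0.3 log2 units, 91.9% for 0.6 and 98.8% for 1, and 5.53% of calls were false. Shifts shared by many probes of an array were not simulated, so these shares need not hold for the data. The number of arrays limits the precision. Promoter windows are RefSeq's, on GRCr8.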

Additional observations from a re-analysis of the deposited data

Results flagged for a closer look

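In each group of 6 arrays the highest or lowest array was set against the others for the 109 named genes, and 13 of 218 groups had an array whose gap to its neighbour was over 0.625 of the group's range; chance gives about 1 in 20. LID replicate 2 was the highest LID array in Ccl2 (89.1, against 51.5 to 55.7) and Cd14 (71.7, against 51.6 to 56.9). LID replicate 4 was the highest in RT1-CE7 (192, against 110.2 to 127) and the lowest in C1qa (435, against 559.9 to 623). LID replicate 6 was the highest in C1qtnf4 (5673, against 4220 to 4635) and the lowest in B2m (5814, against 7202 to 7568). LID replicate 3 was the highest in RT1-A3 (175, against 75.3 to 95.05), LID replicate 1 the lowest in Tnfrsf1a (126, against 137 to 141) and LID replicate 5 the lowest in Ccl5 (64.7, against 71.9 to 76.3). Among PD control arrays, replicate 6 was the highest in Irf9 (152, against 106 to 116) and RT1-CE7 (118, against 73.4 to 87.3). PD control replicate 3 was the lowest in B2m (5443, against 6388 to 6996), and replicate 5 the lowest in Cxcl1 (51.6, against 55.5 to 57.4).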

How the results depend on the processing

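With all arrays 11 probes were higher and 5 lower. Without 1 array the counts ran from 8 to 11 higher and from 3 to 5 lower, with 3 lower without LID replicate 3 and without LID replicate 4. With only probes above the table's median, 5 were higher and 3 lower, from the 44 probes of these genes left in that fit. Other normalizations, log2 of the deposited values, an offset of 1, a filter at the 25th percentile, array weights, another variance model and 1 probe per gene gave 9 to 12 higher and 5 or 6 lower. The labels number the arrays in 1 run across both groups and pair none of them. Replicate numbers here are the order within each group. Matched by that order, deviations of PD control and LID arrays correlated at -0.292 to 0.482. Of 6 LID arrays, 2 correlated best with their own match. With that order as a replicate block 8 were higher and 4 lower. Over the 109 named genes and these settings, 54 calls were lost, 13 were gained and 0 changed direction while past the threshold. With an offset of 1 differences of dim genes widened, that of Ccl2 from 0.13 to 0.62, which did not pass. No detection p-values were used, so no probe could be called undetected.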
